A study of Mus musculus with 6 samples.

Results

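Growth factor ligands that a melanoma cell could make for its own receptors were followed in B16 cells with and without Ifngr1. The ligands were the EGF-family members Egf, Tgfa, Hbegf, Areg, Ereg, Btc and Nrg1, and the ligands Kitl, Hgf and Pdgfa of other receptor tyrosine kinases. They are 10 of the 55335 genes in the count tables, and were found by matching each Ensembl identifier, without its version, to these symbols in GENCODE release M21. Pdgfa and Hbegf were counted in every library and did not differ beyond the spread between libraries, Tgfa fell to almost no counts in IFNγR1KO cells, and Egf rose from a very low level. The other 6 ligands had 0 to 2 counts in every library. Egfr, the receptor of Egf, Tgfa and Hbegf, and Erbb4 had no count in any library.

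The 6 samples were cultured cells, 3 of scrambled control and 3 of IFNγR1KO, all of the mouse melanoma line B16 (the B16-BL6 subline, per the methods of the study). Cells of both groups had been transduced with a lentiviral CRISPR vector and grown as clones; the scrambled control carried a guide that targets GFP, and the labels give its genotype as WT. The cultures were seeded overnight without added cytokine and total RNA was sequenced after poly(A) selection. The replicates are cultures. Whether those of IFNγR1KO came from the same clone is not stated in the labels, so the p-values measure the spread between these cultures and a change carried by a clone cannot be told apart from one due to the loss of Ifngr1.

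Counts on genes were 9402640 to 10579788 in scrambled control libraries and 6698956 to 7409479 in IFNγR1KO libraries, so 1 count was worth 0.0966 to 0.109 CPM (counts scaled to a common library total with TMM factors) in the first group and 0.135 to 0.142 CPM in the second. Within each group 1 library stood apart: the chi-square statistic per degree of freedom was 22.7 and 20.4 between control 3 and the other controls against 9.25 between those, and up to 18.4 between IFNγR1KO 12 and the others against 2.62. Across groups, control 3 and IFNγR1KO 12 gave 19.6, and the other pairs of either library with the opposite group gave 27.7 to 44.9. They were not the nearest pair across groups: controls 1 and 2 with IFNγR1KO 10 and 11 gave 16.3 to 26.9. What control 3 and IFNγR1KO 12 share was not tested. Ifngr1, the targeted gene, had 154, 144 and 172 counts in scrambled control and 80, 85 and 82 in IFNγR1KO libraries (log2 fold change -0.47, adjusted p = 0.0729 by edgeR's quasi-likelihood test), so its RNA was still counted. RNA counts do not measure loss of the protein. The study checked the receptor by flow cytometry and reported that IFN-γ did not raise p-JAK2, Irf1 or PD-L1 in these knockout cells. Melanocyte markers fitted the label, with a summed level of 32998 to 35934 CPM in control and 28846 to 33740 CPM in IFNγR1KO libraries and only Ednrb of the 10 at 0. Of the 5 fibroblast markers, Col1a1 rose by 1.96 and Col1a2 by 1.07 on the log2 scale, and the summed level was 53.5 to 71.3 CPM in control and 126 to 131 CPM in IFNγR1KO libraries. Lum was at 0 and Col3a1 and Dcn had at most 3 counts in a library; the part of these collagen genes in the results below was not tested. Summed keratinocyte markers did not pass 0.326 CPM, endothelial markers 1.99 CPM and leukocyte markers 7.16 CPM, the last nearly all from Lyz2.

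EGF-family ligands are made as membrane-bound precursors. Metalloproteases of the ADAM family cut them from the cell surface, and the freed EGF-like domain binds receptors of the ErbB family: EGF, TGFα and amphiregulin (Areg) bind EGFR, HB-EGF (Hbegf), betacellulin (Btc) and epiregulin (Ereg) bind EGFR and ErbB4, and neuregulin 1 (Nrg1) binds ErbB3 and ErbB4. Stem cell factor (Kitl) binds Kit and keeps melanocytes and their precursors alive, HGF binds Met, and PDGF-A binds PDGFRα. In skin, keratinocytes and fibroblasts make several of these factors, while melanoma cells can acquire expression of their own.

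What the EGF family has in common is the EGF-like domain, a short stretch folded by disulfide bonds between cysteines at fixed distances. The longest coding transcript of each member was searched for cysteines separated by 7, 4 to 5, 10 to 13, 1 and 8 codons. This found exactly 1 match in each of the 7 EGF-family members and none in Kitl, Hgf and Pdgfa. EGF-like repeats with other gaps would not be found, so 1 match is not a count of all such domains. In Tgfa, Hbegf, Areg, Ereg and Btc the cysteines are separated by 7, 4, 10, 1 and 8 codons; Egf has 5 in place of the 4, and Nrg1 has 5 and 13 in place of the 4 and the 10. In all 7 genes the matched domain is split over neighbouring exons, exons 3 and 4 in the first 5, exons 20 and 21 in Egf and exons 2 and 3 in Nrg1. The coding sequences (GENCODE M21, GRCm38, 5′ to 3′ on the coding strand, cysteine codons in capitals) are shown because they are the part of the RNA that encodes the receptor-binding unit, first for the member that fell, then for the one that rose, then for 3 that were at or near 0.
Tgfa: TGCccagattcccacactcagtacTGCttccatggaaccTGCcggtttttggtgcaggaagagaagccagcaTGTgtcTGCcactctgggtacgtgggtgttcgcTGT
Egf: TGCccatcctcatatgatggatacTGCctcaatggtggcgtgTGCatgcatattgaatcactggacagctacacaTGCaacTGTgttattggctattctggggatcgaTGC
Areg: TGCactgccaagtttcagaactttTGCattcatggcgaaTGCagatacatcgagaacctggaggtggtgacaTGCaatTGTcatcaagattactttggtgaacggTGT
Ereg: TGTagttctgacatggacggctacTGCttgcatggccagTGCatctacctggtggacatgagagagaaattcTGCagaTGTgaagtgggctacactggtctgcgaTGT
Btc: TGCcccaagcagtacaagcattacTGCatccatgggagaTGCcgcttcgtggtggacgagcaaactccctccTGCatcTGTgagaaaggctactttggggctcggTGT
The Tgfa stretch covers codons 46 to 81 of 159 and lies within chr6:86263200-86269960 on the plus strand, and the Egf stretch covers codons 982 to 1018 of 1217 and lies within chr3:129686322-129690850 on the minus strand. Over the 108 bases that Tgfa shares in length with Areg, Ereg and Btc, 67 are identical in Btc, 51 in Areg and 49 in Ereg. Hbegf, whose stretch has the same length, was not compared. Btc, the nearest to Tgfa of the 3 compared, had at most 2 counts in a library.

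Of the 10 ligands, 4 passed edgeR's filter on low counts and were tested, and 2 of the 4 were called at an adjusted p under 0.05, Tgfa lower and Egf higher. Over all 13642 genes tested 15.3% were called, 7.73% higher and 7.62% lower. Both also passed the study's limit for a differentially expressed gene (DEG), an absolute log2 fold change above 1 with the same adjusted p, as 5.20% of all tested genes did. Their groups did not overlap, which held for 32.6% of all tested genes. Tgfa passed the filter only through its counts in scrambled control libraries, and Egf only through those in IFNγR1KO libraries. The calls, fold limit and lack of overlap of these 2 ligands are therefore given as description beside the shares of all genes. The median log2 fold change of the 4 tested ligands was -0.02 and that of all tested genes was -0.00. Of the 6 ligands that were not tested, each was filtered for its low counts in both groups.

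Tgfa, which encodes TGFα (ENSMUSG00000029999.14, chromosome 6 from 86195223 to 86275719, plus strand), had 26, 25 and 49 counts in scrambled control libraries 1, 2 and 3, and 1, 1 and 0 in IFNγR1KO libraries 10, 11 and 12. Every control library was thus far above every IFNγR1KO library, and control 3 was the highest. In CPM this is a level of 3.35 ± 1.21 (SD, n = 3) for scrambled control against 0.0925 ± 0.0802 (SD, n = 3) for IFNγR1KO. Summed over each group these are 100 against 2 counts, a ratio of 36.4 after scaling, with an exact 95% interval of 9.81 to 304 that covers counting error only. The fit gave -4.97 ± 0.66 (standard error) as the log2 fold change, with an adjusted p of 0.000355 (edgeR's quasi-likelihood test); at 2 counts its size depends on the prior count of the fit. In bulk RNA, fewer cells with the transcript and less of it per cell cannot be told apart. Without control 3 it was -4.62 (adjusted p = 0.000124) and without IFNγR1KO 12 it was -4.47 (adjusted p = 4.12e-05). An unnamed transcript on the other strand, Gm43917, covers 1.82% of the exonic bases of Tgfa and had 6, 1 and 3 counts in control and 0, 1 and 0 in IFNγR1KO libraries.

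Egf (ENSMUSG00000028017.7, chromosome 3 from 129677565 to 129755316, minus strand), which gave the family its name, had 11, 9 and 16 counts in scrambled control and 26, 19 and 24 in IFNγR1KO libraries, although the latter were sequenced less deeply. The lowest IFNγR1KO library was above the highest control library. Its level rose from 1.21 ± 0.326 to 3.21 ± 0.577 CPM (SD, n = 3 each). On the log2 scale the change was 1.39, with a 95% interval of 0.68 to 2.12 (adjusted p = 0.0142 by edgeR's quasi-likelihood test). The call rests on few counts: without control 2 the log2 fold change was 1.21 with an adjusted p of 0.0700, and without IFNγR1KO 10 it was 1.28 with an adjusted p of 0.0723. Without control 3 it was 1.61 and without IFNγR1KO 12 it was 1.35 (adjusted p = 0.0128 and 0.0202). Genes on the other strand cover 9.82% of the exonic bases of Egf and had 1 count in all libraries together.

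Hbegf (ENSMUSG00000024486.6, chromosome 18 from 36504927 to 36515805, minus strand), which encodes the heparin-binding member, had 63, 47 and 77 counts in scrambled control and 46, 39 and 47 in IFNγR1KO libraries. The groups overlapped, at 6.32 ± 1.45 and 6.14 ± 0.744 CPM (SD, n = 3 each). The log2 fold change was -0.04 with a 95% interval of -0.56 to 0.47 (adjusted p = 0.934 by edgeR's quasi-likelihood test). A change of Hbegf as large as the 1.39 of Egf lies outside this interval.

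Pdgfa (ENSMUSG00000025856.15, chromosome 5 from 138976014 to 138997370, minus strand), the ligand of PDGFRα, had 176, 171 and 181 counts in scrambled control and 103, 118 and 164 in IFNγR1KO libraries. The levels were 17.9 ± 1.10 and 17.9 ± 4.52 CPM (SD, n = 3 each), with IFNγR1KO 12 above and the other IFNγR1KO libraries below all controls. The log2 fold change was 0.00 with a 95% interval of -0.41 to 0.41 (adjusted p = 0.996 by edgeR's quasi-likelihood test), and -0.22 (adjusted p = 0.449) without IFNγR1KO 12. On the other strand 6330403L08Rik covers 26.1% of the exonic bases of Pdgfa and had 19 to 44 counts in a library. Reads of both could be mixed if the library did not keep strand or counting did not use it.

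**Figure D1:**
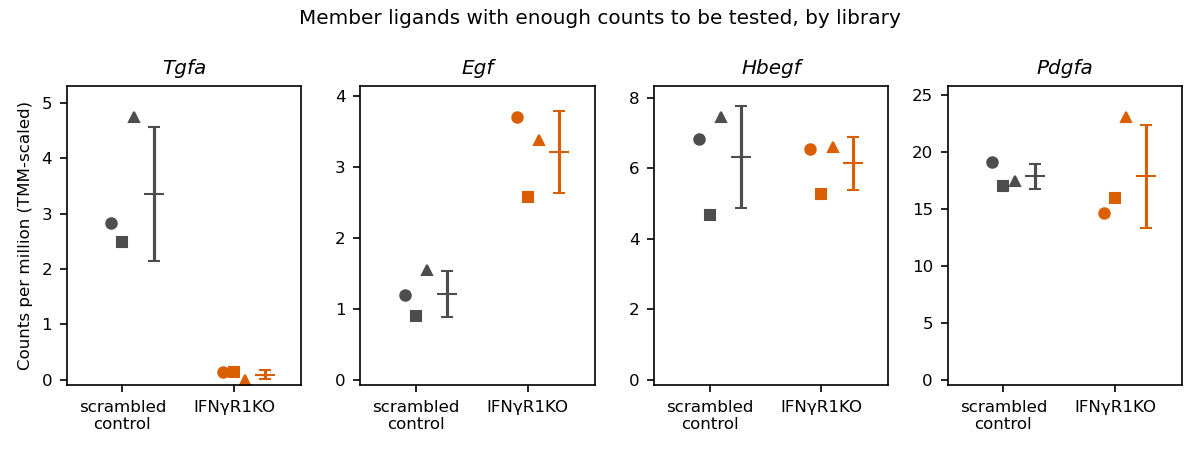
CPM (TMM-scaled, linear axis from 0) of the tested ligands Tgfa, Egf, Hbegf and Pdgfa in each library. Circles are control 1 and IFNγR1KO 10, squares control 2 and IFNγR1KO 11, triangles control 3 and IFNγR1KO 12, and bars give the mean ± SD of 3 libraries. Tgfa and Egf separate the groups in opposite directions, while the groups overlap for Hbegf and Pdgfa.

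The remaining ligands were at or near 0. Areg, Ereg and Hgf had no count in any library; a count of 0 over the 3 libraries of a group allows a level of up to 0.101 CPM in scrambled control and 0.139 CPM in IFNγR1KO cells, which covers counting error only. Btc had 2, 2 and 0 counts in control libraries and none in IFNγR1KO libraries (two-sided exact permutation test, p = 0.4). Nrg1 had 2 counts in control 3 alone (exact permutation p = 1), and Kitl had 2, 0 and 1 counts in control and 0, 0 and 1 in IFNγR1KO libraries (exact permutation p = 0.7). With 3 libraries a group this test cannot go below 0.1. Fitted with edgeR without a filter, none of Btc, Nrg1 and Kitl was called or had an unadjusted p under 0.05 (adjusted p = 0.395 to 0.780).

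Areg, Ereg and Btc lie next to each other on chromosome 5 with Epgn, which encodes the further EGFR ligand epigen. The stretch from the start of Epgn to the end of Btc (chr5:91027464-91402994) holds 7 annotated genes, and their counts over all 6 libraries came to 7, with at most 2 in a library. Of the genes on either side, Mthfd2l had 11, 18 and 16 counts in control and 13, 6 and 6 in IFNγR1KO libraries, and Parm1 had at most 1. The near absence of counts thus spanned the whole ligand cluster in both groups and stopped at Mthfd2l on one side.

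Per length of exon, the order of the ligands was Pdgfa, Hbegf, Tgfa and Egf in scrambled control cells, at 5.73, 1.31, 0.516 and 0.107 RPKM (CPM divided by the exonic length in kilobases). In IFNγR1KO cells Egf and Tgfa changed places: Pdgfa was at 5.74, Hbegf at 1.27, Egf at 0.285 and Tgfa at 0.0143 RPKM. Within each group, no library of one of these 4 genes overlapped a library of the next. With the length of the longest transcript in place of all exons, Egf was at 0.255 and 0.675, Hbegf at 2.19 and 2.13 and Pdgfa at 8.67 and 8.69 RPKM in control and IFNγR1KO cells, in the same order. Btc, Kitl and Nrg1 did not differ from each other beyond their spread, since each had libraries at 0. In IFNγR1KO cells Tgfa did not separate from them: it had a library at 0, and Kitl was at 0.0238 RPKM in IFNγR1KO 12, above each library of Tgfa. Among the 23304 genes with any count, Pdgfa stood at percentile 69.4 in control and 69.2 in IFNγR1KO cells, Hbegf at 48.0 and 47.2, Tgfa at 38.7 and 10.8, and Egf at 24.8 and 32.4. Adding the RPKM of the 6 EGFR ligands gives 1.47 to 2.41 in control and 1.34 to 1.70 in IFNγR1KO libraries, ranges that overlap. Hbegf made up 64.0% to 70.6% of this sum in control and 79.5% to 82.0% in IFNγR1KO libraries, Tgfa 21.7% to 30.3% and 0% to 1.56%, and Egf 5.29% to 5.70% and 17.0% to 19.3%. With the longest transcript as length, Egf made up 7.61% to 8.23% and 22.5% to 25.3%, and Hbegf 65.3% to 71.8% and 73.7% to 76.3%.

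The other EGF-family ligands outside the 10 were Epgn, Nrg2, Nrg3 and Nrg4. Nrg4, a ligand of ErbB4, was the EGF-family RNA with the highest level per length, 3.76 RPKM in scrambled control and 2.64 RPKM in IFNγR1KO cells. It had 215, 212 and 250 counts in control and 104, 142 and 100 in IFNγR1KO libraries, and its groups did not overlap, with a log2 fold change of -0.51 that missed the threshold (adjusted p = 0.0595 by edgeR's quasi-likelihood test). Its exons overlap over 8.97% of their bases with genes on the other strand, among them Fbxo22 at 528 to 934 counts a library, so its count is uncertain. Nrg2 had 8 to 23 counts a library (log2 fold change 0.09, adjusted p = 0.922), and Epgn and Nrg3 had none. No gene of this list was called by edgeR with its filter, DESeq2 or limma-voom, and 1, Nrg4, had an unadjusted p under 0.05. Without a filter edgeR called Nrg4 lower (log2 fold change -0.54, adjusted p = 0.0374).

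The receptors showed which of these ligands had a counterpart in the same cells. Egfr, the receptor of Egf, Tgfa and Hbegf, and Erbb4 had no count in any of the 6 libraries. Met, the receptor of the undetected Hgf, had the highest level of the EGF-family ligands, members and receptors, at percentile 94.9 in control and 92.2 in IFNγR1KO cells of the genes with any count. Of the 8 receptors 6 were tested and 3 were called, 1 higher and 2 lower, beside 15.3% of all tested genes; their median log2 fold change was -0.37.

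Erbb3, which binds neuregulins and signals with Erbb2, rose: it had 240, 217 and 266 counts in control and 300, 339 and 460 in IFNγR1KO libraries, a log2 fold change of 1.06 with a 95% interval of 0.68 to 1.44 (adjusted p = 0.00184 by edgeR's quasi-likelihood test), and 0.85 without IFNγR1KO 12. Its partner Erbb2, which has no ligand of its own, had a log2 fold change of -0.08 with a 95% interval of -0.44 to 0.29. Kit, the receptor of Kitl, fell by 1.96 on the log2 scale (95% interval -2.37 to -1.55, adjusted p = 4.78e-05 by the same test), from 398, 414 and 522 counts to 58, 96 and 95. Every IFNγR1KO library of Kit was below every control library, and the fall was called in each of the 13 alternative analyses.

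Met had 3601, 3257 and 4882 counts in control and 1617, 1680 and 2067 in IFNγR1KO libraries, and fell from 51.5 to 32.5 RPKM (log2 fold change -0.67, adjusted p = 0.0202 by edgeR's quasi-likelihood test). The call was lost without control 3, IFNγR1KO 10 or IFNγR1KO 11, at adjusted p of 0.0520, 0.0913 and 0.121. The PDGF receptors did not pass the threshold: Pdgfra, at 3.60 ± 0.481 and 2.10 ± 0.327 CPM (SD, n = 3 each), had a log2 fold change of -0.77 (adjusted p = 0.0866), and Pdgfrb, at 16.3 ± 2.52 and 22.5 ± 3.78 CPM, one of 0.46 (adjusted p = 0.103), which without control 3 came to 0.60 with an adjusted p of 0.0488.

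**Figure D2:**
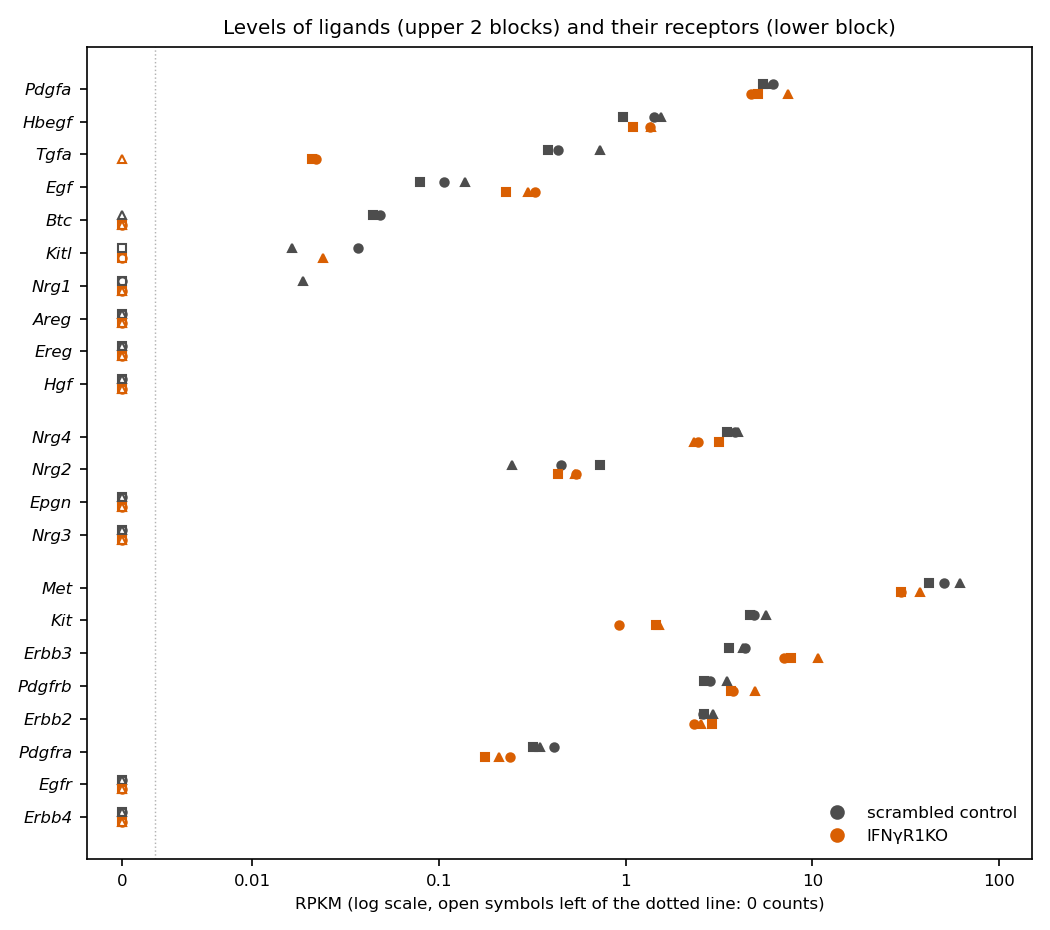
RPKM (log axis) of the 10 ligands, 4 further EGF-family ligands and 8 receptors, 1 point a library, with libraries at 0 counts drawn as open symbols left of the dotted line. Symbols are as in the plot of CPM by library. Egfr and Erbb4 are at 0 in all 6 libraries while Met, at 51.5 and 32.5 RPKM, has no counted Hgf.

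Release of the ligands from the surface depends on ADAM metalloproteases and their partners. All 10 genes of this list were tested and 5 were called, 1 higher and 4 lower, beside 15.3% of all tested genes called, 7.73% higher and 7.62% lower. Adam12, a protease able to cut HB-EGF, fell from 128, 116 and 163 counts in control to 7, 2 and 4 in IFNγR1KO libraries, by 4.47 on the log2 scale (adjusted p = 5.79e-06 by edgeR's quasi-likelihood test). Adam19 rose by 0.90 (adjusted p = 0.00369). Adam10, which cuts the precursors of EGF and betacellulin, fell by 0.67 (adjusted p = 0.0178), and Frmd8, a binding partner of the iRhom proteins that carry ADAM17 to the surface, fell by 0.61 (adjusted p = 0.0217). Adam17, the main protease for TGFα and HB-EGF, was named outside the naming rule after its values were seen. It had 638, 661 and 795 counts in control and 448, 471 and 551 in IFNγR1KO libraries, with a log2 fold change of -0.05 and a 95% interval of -0.35 to 0.25. Fewer were called with a library left out, 2 of the 10 without IFNγR1KO 10 or 11 and 3 without control 2. The log2 fold changes of Adam10 and Frmd8 stayed between -0.80 and -0.49 over all 6 fits with 1 library left out. Their calls were less steady: Adam10 was called in 4 of these fits and Frmd8 in 2. The adjusted p reached 0.111 for Adam10 and 0.109 for Frmd8 (edgeR's quasi-likelihood test).

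Pro-HGF is activated by serine proteases held in check by Spint inhibitors. Of the 7 genes listed 3 were tested, and 1, Hpn, was called, beside 15.3% of all tested genes. It encodes the activating protease hepsin and rose from 12, 13 and 13 to 19, 23 and 20 counts (log2 fold change 1.16, adjusted p = 0.0221 by edgeR's quasi-likelihood test). The call was lost with DESeq2 (adjusted p = 0.0927) and on leaving out any control library, IFNγR1KO 10 or IFNγR1KO 11 (adjusted p = 0.0560 to 0.0957).

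**Figure D3:**
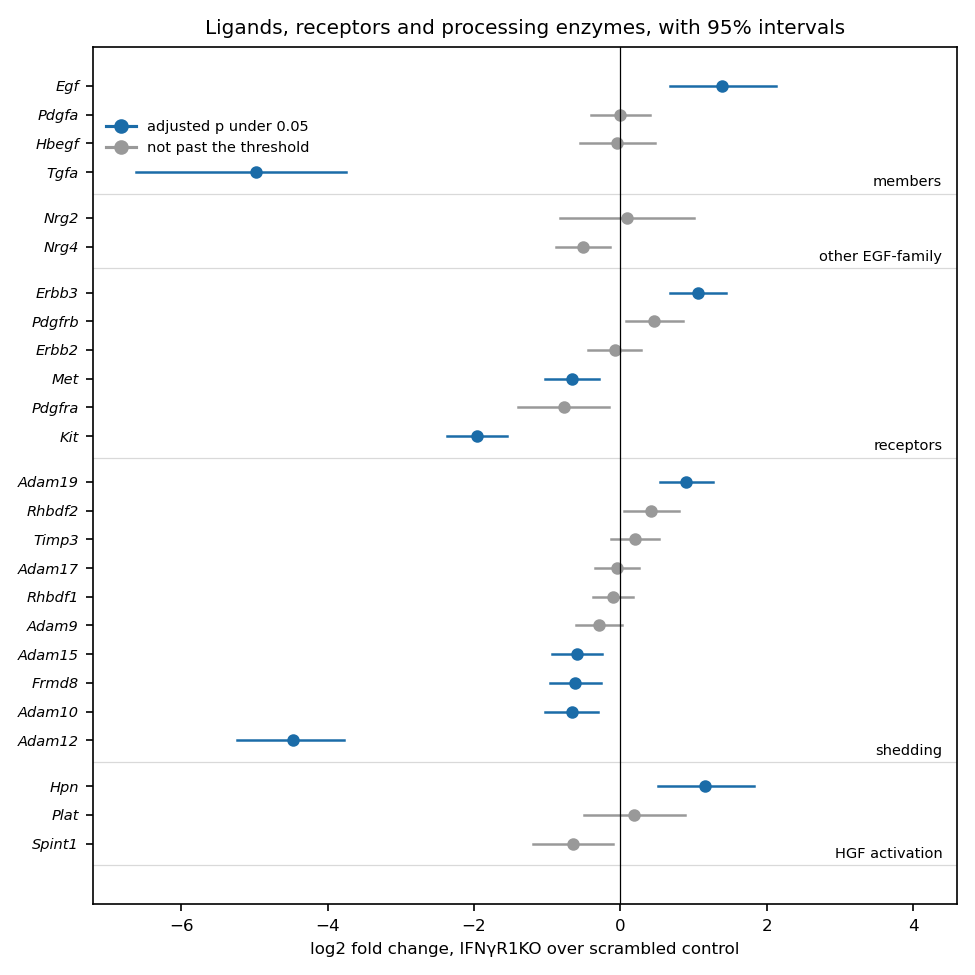
Log2 fold change of IFNγR1KO over scrambled control for the tested genes among the ligands, their receptors, the shedding genes and the HGF activation genes, with 95% intervals from edgeR's fit, blue where the adjusted p is under 0.05. Tgfa at -4.97 and Adam12 at -4.47 lie far below the rest, and Hbegf at -0.04 and Pdgfa at 0.00 lie on the line of no change.

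Among 31 ligands of other receptor tyrosine kinases, 11 were tested and 2 were called, a share near the 15.3% of all tested genes. DESeq2 called 3 of the 16 to which it gave an adjusted p. Vegfa, the main driver of vessel growth, rose by 0.97 on the log2 scale (662, 692 and 563 against 945, 974 and 822 counts, adjusted p = 0.00109 by edgeR's quasi-likelihood test). Fgf1, which encodes acidic fibroblast growth factor, fell by 0.67 (adjusted p = 0.0127), a call that was lost without control 2, IFNγR1KO 10 or IFNγR1KO 11 (adjusted p = 0.0560, 0.0524 and 0.0754). Fgf21, a hormone-like member of the FGF family that was named after its values were seen, did not reach the filter: it had no count in any control library and 14, 9 and 7 counts in IFNγR1KO libraries. Its pooled level in IFNγR1KO libraries was 13.8-fold the floor of 3 counts over the control group. This ratio leaves out the counting error and spread of the IFNγR1KO libraries, so it is not a lower bound. The median log2 fold change of the 11 tested ligands was -0.04.

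Feedback inhibitors of ErbB receptors, such as Errfi1 and the Lrig and Cbl genes, gave no call among the 8 of 10 that were tested, by edgeR, DESeq2 or limma-voom; 1 had an unadjusted p under 0.05. Among the ERK response genes, a list of genes that respond to signaling downstream of these receptors, changes were to lower levels: 7 of the 16 tested were called lower and none higher, beside 7.62% and 7.73% of all tested genes, and 10 had an unadjusted p under 0.05, all of them lower. DESeq2 and limma-voom also called 7 lower and none higher. Their median log2 fold change was -0.43. The transcription factor Etv1 fell by 1.24 (115, 134 and 172 against 34, 43 and 52 counts, adjusted p = 0.00224 by edgeR's quasi-likelihood test) and Etv5 by 1.55 (adjusted p = 0.00353). The ERK pathway inhibitor Spred2 fell by 1.00 (adjusted p = 0.0028) and the cyclin Ccnd1 by 0.97 (adjusted p = 0.00288). The early response genes Fos, Egr1, Ier3 and Phlda1, which did not pass the threshold, had log2 fold changes between -0.18 and 0.12.

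**Figure D4:**
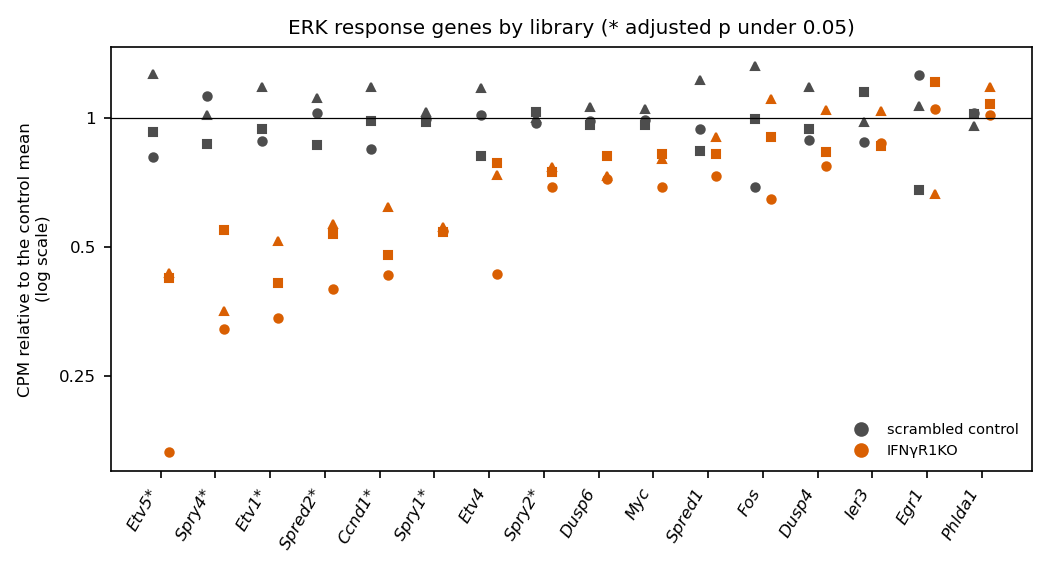
CPM of 16 tested ERK response genes in each library, divided by the control mean of the gene (log axis), ordered by fold change. Symbols are as in the plot of CPM by library, and an asterisk marks an adjusted p under 0.05. The marked genes, all lower in IFNγR1KO, lie on the left, and Phlda1, with a log2 fold change of 0.12, on the right.

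RefSeq promoters (GRCm38.p6, from 250 bases before to 50 after a start) were found for 7 of the 10 members. That of Tgfa holds 24 CpG dinucleotides and 70.7% G and C, and that of the start of Egf at the end of the gene model holds 0 CpG and 49% G and C. A second start of Egf, within the gene, has a promoter with 17 CpG and 52.3% G and C, and which start these cells used was not measured. The median over 32851 promoters is 7 CpG and 52.7%. The promoters of Tgfa and of the outer start of Egf are shown because these ligands moved in opposite directions, with the GC box GGGCGG in capitals, searched on both strands together with the GAS element TTCNNNGAA of interferon signaling, the CRE TGACGTCA, the AP-1 site TGANTCA and the E-box CATGTG.
Tgfa, chr6:86194972-86195271, plus strand: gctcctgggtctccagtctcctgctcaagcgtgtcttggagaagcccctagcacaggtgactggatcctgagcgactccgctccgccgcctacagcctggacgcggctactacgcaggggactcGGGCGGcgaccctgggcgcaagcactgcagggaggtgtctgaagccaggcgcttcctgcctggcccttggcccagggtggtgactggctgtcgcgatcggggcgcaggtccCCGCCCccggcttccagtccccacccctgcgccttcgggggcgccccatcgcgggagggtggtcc
Egf, chr3:129755273-129755572, minus strand: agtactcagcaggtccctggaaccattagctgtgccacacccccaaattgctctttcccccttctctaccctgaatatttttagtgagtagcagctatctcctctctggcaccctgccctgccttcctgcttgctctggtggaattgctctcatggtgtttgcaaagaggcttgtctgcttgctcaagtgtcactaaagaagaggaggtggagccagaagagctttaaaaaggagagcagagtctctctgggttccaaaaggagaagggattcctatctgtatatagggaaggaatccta
The Tgfa window has 2 GC boxes, which 35.7% of all promoters have at least once, and the Egf window has none of the searched motifs. Neither window has a GAS element, found in 8.30% of all promoters, a CRE (1.79%), an AP-1 site (7.81%) or the E-box (14.2%). These are matches of letters in the reference and no binding was measured.

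The genes around Tgfa were examined after the values of Tgfa were seen. Of 52 annotated genes within 500 kb, 20 were tested, 7 were called higher and none lower, beside 7.73% and 7.62% of all tested genes. At an unadjusted p under 0.05 (edgeR's quasi-likelihood test) 10 were higher and 1 was lower. The lower gene was Pcyox1, with a log2 fold change of -0.40 (adjusted p = 0.0510). The highest was Nat8f5 at 2.28 (adjusted p = 0.000332), and Nat8f3, Nat8 and Nat8f1 were also called higher. These belong to a family of like genes in tandem, so their reads may be split between copies. Around Egf, 6 of 26 genes were tested and 1 was called, a share near the 15.3% of all tested genes: Elovl6, an enzyme of fatty acid elongation, fell by 1.09 (adjusted p = 0.0005). Casp6 was also lower at an unadjusted p under 0.05 by the same test (log2 fold change -0.50, adjusted p = 0.0548). None was called higher or had an unadjusted p under 0.05 in that direction.

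**Figure D5:**
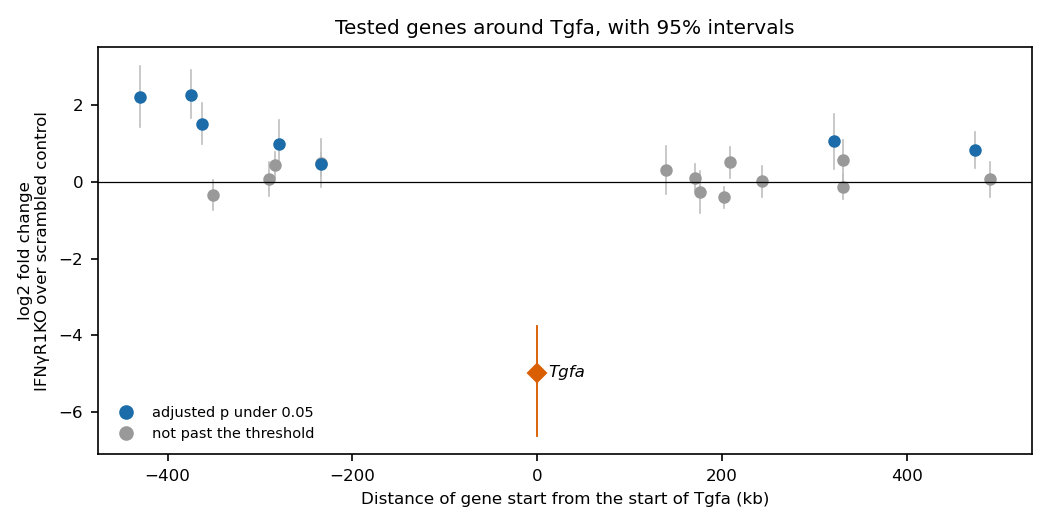
Log2 fold change of the 20 tested genes within 500 kb of Tgfa against the distance of their start from the start of Tgfa in kb, with 95% intervals, blue where the adjusted p is under 0.05. Tgfa itself (diamond) lies at -4.97 while its neighbours lie between -0.40 and 2.28.

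The genes most like the called ligands over the 6 libraries, among 11061 genes with a mean of at least 5 CPM, included Wdr5 and Gm48342 for Tgfa (Pearson r of log2 CPM 0.999 and 0.996) and were Prrc1, Ttpal and Golga2 for Egf (0.997, 0.996 and 0.993). The points share libraries and fall into the groups of the study, and these genes had log2 fold changes of -0.47 and -0.70 for the first set and 0.75, 0.66 and 0.33 for the second.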

How the data were processed

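RNA of 3 scrambled control and 3 IFNγR1KO cultures was measured by paired-end RNA-seq. Alignment by the authors to GRCm38 used STAR 2.7.5a, and reads were counted per gene with HTSeq 0.11.2; the deposited values are raw counts, 1 table a library, and the strand setting of the counting is not given in the sources used here. Of all counted fragments 46.0% to 47.0% were on genes. The lines for no feature (46.9% to 47.7%), ambiguous (1.57% to 1.85%) and not unique (3.76% to 4.61%) were left out of library sizes and tests. If the libraries did not keep strand or counting ignored it, reads of overlapping genes on opposite strands were mixed or dropped as ambiguous.

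From the counts, edgeR 4.0.16 in R 4.3.3 was run over all genes: filterByExpr (minimum count 10, minimum total 15), TMM scaling, quasi-likelihood test and Benjamini-Hochberg adjustment over 13642 genes. The study used DESeq2 1.34.0 with an adjusted p of 0.05 and an absolute log2 fold change of 1 as limits; here DESeq2 1.42.0 was an alternative, as were limma-voom 3.58.1, RLE factors, library totals, other filters, thinning to the smallest library and leaving out each library. RPKM used the union of exons in GENCODE M21, which holds 55154 of the 55335 identifiers.

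The members and lists were chosen with earlier results of these data known. Named genes were all members and receptors, the targeted gene, the called genes with the 4 smallest adjusted p in each other list, and the 3 genes most correlated with each called member, 1 of which is not reported here; Adam17, Fgf21, early response genes and neighbours fall outside this rule and were chosen after their values were seen.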

Additional observations from a re-analysis of the deposited data

How the results depend on the processing

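Tgfa was called lower in each of the 13 alternatives (log2 fold change -5.34 to -4.47), and Egf was called higher in 11 of them (1.21 to 1.75). Leaving out 1 library at a time gave 1028 to 2824 called genes in all, 1 to 2 called members and 1 to 2 members past the fold limit, 2 to 5 shedding genes, 0 to 1 HGF activation genes, 1 to 3 other receptor tyrosine kinase ligands and 0 to 1 ErbB inhibitors; the lower counts of members were without control 2 and without IFNγR1KO 10, where Egf was lost. Without a filter, 1 of the other EGF-family ligands and 4 of the other receptor tyrosine kinase ligands were called. With library totals in place of TMM factors 3 shedding genes were called, and with DESeq2 0 HGF activation genes; the cause was not tested. The counts of receptors (2 to 3) and ERK response genes (6 to 8) stayed within 1.5 times.

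Values near 0 changed sign. For Hbegf the log2 fold change was 0.00364 with library totals and -0.22 to 0.10 on leaving out a library. For Pdgfa it was -0.00864 with DESeq2, -0.0228 with limma-voom, -0.0271 without a filter and -0.22 to 0.13 on leaving out a library. Of 354 values of single genes under an alternative, 302 kept direction and side of the threshold or level, 34 missed the threshold, 1 newly passed it, 10 changed sign and 7 levels moved, all of these with the longest transcript as length, which kept the order of the 4 ligands. Scaling moved the median of all genes by at most 0.05.

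No paired analysis was possible because the groups share no replicate number (1, 2 and 3 against 10, 11 and 12). Depth limits the 6 ligands at 0 to 2 counts, whose change was not detectable at this depth.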
